A study of Homo sapiens with 9 samples.

Results

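The genes described here carry peptides to the cell surface on major histocompatibility complex (MHC) class I molecules. They were the 9 rows of the deposited count table with the symbols HLA-B, HLA-C, HLA-E, HLA-F, B2M, TAP1, TAP2, TAPBP and NLRC5, out of 60591 symbols in all. Their messenger RNA was measured in undifferentiated Caco-2 (uCaco-2) cells, a proliferating human colon adenocarcinoma line, after 24 h in 300 μM CoCl2, in 5 μM of an oxyquinoline derivative (OD) or in fresh medium. All 3 media held 0.5% DMSO, so the control cells carried the solvent too, and each condition had 3 biological replicates of this single line. Both agents are used as chemical activators of the hypoxia-inducible factor (HIF) pathway, and the comparisons ask how each changes expression against control cells and how the agents differ from each other.

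A class I molecule is a heavy chain (HLA-B, HLA-C, HLA-E or HLA-F) bound to the small subunit β2-microglobulin, which B2M encodes. Peptides made by the proteasome in the cytosol are pumped into the endoplasmic reticulum (ER) by the transporter of the TAP1 and TAP2 proteins, and tapasin, the product of TAPBP, holds the empty class I molecule beside the transporter until a peptide is bound. NLRC5 is a transactivator that acts at class I promoters together with RFX, CREB/ATF and NF-Y proteins, and interferons raise many of these genes through IRF and related factors. In the intestinal epithelium, class I molecules show peptides to CD8 T cells, while HLA-E is also a ligand of receptors on natural killer cells.

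The promoters of class I genes are known for shared short elements, and some are shown to let a reader see which of these letters each gene holds. No relation between the matches and expression was tested. RefSeq start sites on GRCh38.p14 gave windows for 7 of the 9 genes, and HLA-E and NLRC5 had no entry. TAP1 has more than 1 start, of which the first is shown. Each window below has the 250 bases before the start, 5′ to 3′ on the gene's own strand, with matches in capitals.
HLA-B, chr6:31357180-31357429, minus strand: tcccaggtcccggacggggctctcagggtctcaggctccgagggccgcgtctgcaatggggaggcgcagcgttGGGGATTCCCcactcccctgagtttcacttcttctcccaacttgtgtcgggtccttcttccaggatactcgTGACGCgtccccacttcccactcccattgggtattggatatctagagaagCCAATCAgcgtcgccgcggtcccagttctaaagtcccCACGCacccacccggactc
HLA-C, chr6:31272093-31272342, minus strand: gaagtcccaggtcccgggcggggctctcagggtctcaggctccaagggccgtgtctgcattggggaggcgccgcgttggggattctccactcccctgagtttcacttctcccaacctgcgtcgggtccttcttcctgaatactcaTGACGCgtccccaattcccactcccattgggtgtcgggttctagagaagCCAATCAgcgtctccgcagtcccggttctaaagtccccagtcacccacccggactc
B2M, chr15:44711267-44711516, plus strand: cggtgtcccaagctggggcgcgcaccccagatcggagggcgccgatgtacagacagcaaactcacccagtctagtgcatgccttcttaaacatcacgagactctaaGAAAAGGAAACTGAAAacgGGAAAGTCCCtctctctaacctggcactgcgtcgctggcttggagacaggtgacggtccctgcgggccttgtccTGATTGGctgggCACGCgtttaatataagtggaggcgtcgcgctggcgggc
TAP1, chr6:32853705-32853954, minus strand: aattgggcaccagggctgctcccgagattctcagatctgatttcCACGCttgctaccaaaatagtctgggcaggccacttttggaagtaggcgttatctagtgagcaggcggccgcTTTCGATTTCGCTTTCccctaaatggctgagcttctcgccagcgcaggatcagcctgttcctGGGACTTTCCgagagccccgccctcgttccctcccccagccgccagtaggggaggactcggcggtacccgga
TAP2, chr6:32838740-32838989, minus strand: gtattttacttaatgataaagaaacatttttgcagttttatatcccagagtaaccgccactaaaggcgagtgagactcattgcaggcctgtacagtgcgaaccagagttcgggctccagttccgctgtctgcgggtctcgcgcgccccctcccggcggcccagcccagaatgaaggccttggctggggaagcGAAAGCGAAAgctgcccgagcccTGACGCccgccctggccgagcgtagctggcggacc
The capitals mark any of 7 motifs searched on both strands, chosen with these windows known. An interferon-stimulated response element core (GAAANNGAAA) was found for 5 of the 7 genes (HLA-F, B2M, TAP1, TAP2 and TAPBP), against 3.02% of all 35116 windows of this length. B2M, TAP1 and TAPBP each had a pair of copies sharing 4 bases, which run together in the capitals, and no other matches overlapped. A κB motif (GGGNNTTNCC) was found for 4 genes (HLA-B, B2M, TAP1 and TAPBP) and in 5.07% of all windows. The X2 box core (TGACGC) lay in HLA-B, HLA-C and TAP2, which is 3 genes, and in 7.67% of all windows. A Y box (CCAATCA) lay in HLA-B, HLA-C, HLA-F and B2M, again 4 genes, and in 6.62% of all windows. In HLA-B the X2 box began 106 bases and the Y box 56 bases before the start, and in HLA-C 105 and 56 bases before it. Of the HIF-type cores, ACGTG was in none of the 7 genes' windows (18.5% of all windows), while GCGTG was in 4 (HLA-B, HLA-F, B2M and TAP1) and in 32.2% of all windows. The heat-shock element GAANNTTCNNGAA was found for 0 of the 7 genes and in 0.441% of all windows. A match is a string of letters and not a measured binding site. Only exact matches to these letters were counted, so a gene without a match may still hold a variant of that element.

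B2M lies on the plus strand of chromosome 15 (44711358 to 44718851, GRCh38) and NLRC5 on the plus strand of chromosome 16 (56989485 to 57083531). The other 7 genes lie on chromosome 6. HLA-F (29722775 to 29738528) and HLA-E (30489509 to 30494194) are on its plus strand, and HLA-C (31268749 to 31272130), HLA-B (31353872 to 31367067), TAP2 (32821833 to 32838739), TAP1 (32845209 to 32853816) and TAPBP (33299694 to 33314284) are on its minus strand. Counts can be lost or shared between near-identical genes, so each gene's reference transcript (MANE Select) was cut into windows of 75 bases, the read length. No window of HLA-B, HLA-F, B2M or NLRC5 occurred in a transcript of another gene, and for HLA-C, HLA-E, TAP1 and TAPBP the share was 1.98%, 2.30%, 0.23% and 1.72%. For TAP2 it was 35%, since a read-through transcript of the same strand contains these windows, so the TAP2 counts are less certain. Other annotated genes on either strand cover 47.3% of the merged exons of HLA-B, 28% of HLA-F, 21% of TAPBP, 19.5% of TAP2 and 14.2% of TAP1, and the strand setting of the counting is not given in the sources used here. HLA genes vary between people, and how well reads from the alleles of this line fit the reference was not tested.

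Libraries held 15998136 to 24209427 counts. Scaling factors (edgeR's TMM, which adjusts each library for its composition) were 0.77 to 0.795 with CoCl2 and 1.11 to 1.15 in the other 6 libraries. Levels below are CPM, counts scaled to the same adjusted total in every library. Without these factors (library size alone), the median over all tested genes with CoCl2 was -0.554 in place of -0.049 on the log2 scale, and 23.9% in place of 46% of the called genes were up. Of 8 listed HIF targets, 7 were tested. With CoCl2 7 were called up, where 19.9% of all tested genes were, and with OD 5, where 9.09% were. CA9 was not tested, with 0 to 1 counts in the control libraries, 2 to 5 with CoCl2 and 10 to 16 with OD. NDRG1 and BNIP3 rose with both agents, with log2 fold changes of 3.69 and 3.77 with CoCl2 and 3.22 and 3.98 with OD (edgeR, adjusted p at most 6.23e-50), whereas with OD EGLN3 had 0.35 and ADM had -0.46 (adjusted p = 1.38e-09, edgeR). All 7 epithelial markers listed were tested, VIL1 (villin) being called down with CoCl2 (log2 fold change -2.45), with summed levels of 10800 to 11300 CPM in control cells, 12900 to 13800 with CoCl2 and 10100 to 10700 with OD. Of the 14 immune and stromal markers, 5 had at most 3 counts in every library, with PTPRC (CD45) at 0 in the control libraries, and the 14 together had 22.5 to 27.0 CPM in control cells, 18.5 to 20.4 with CoCl2 and 28.9 to 29.6 with OD. Of the 6 tested, VWF was called up with CoCl2 (log2 fold change 1.61) and CD14 down with OD (log2 fold change -1.08), each against the direction of the sum. In bulk libraries, a change in the share of cells that express a gene and a change per cell cannot be told apart.

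In control cells the 9 genes covered a wide range of levels. Per kilobase of the reference transcript, B2M was highest at 261 ± 2.74 CPM per kb (SD, n = 3), followed by HLA-C at 96.2 ± 3.59, HLA-E at 28.8 ± 0.639, HLA-B at 15.6 ± 1.23 and TAPBP at 10.7 ± 0.405. TAP2 at 1.12 ± 0.0292 CPM per kb and TAP1 at 0.906 ± 0.141 were far below the chains they serve, and HLA-F at 0.288 ± 0.0792 and NLRC5 at 0.101 ± 0.0514 were lowest. No neighbours in this order overlapped between control libraries. With CoCl2 the order of the 5 highest was kept, but TAP1 at 0.825 ± 0.137 CPM per kb stood above TAP2 at 0.536 ± 0.0996. TAP1 was above TAP2 with OD as well, at 2.87 ± 0.0693 against 2.12 ± 0.0638 CPM per kb. Together the 9 genes took 0.0587% to 0.0608% of all counts in control cells, 0.114% to 0.117% with CoCl2 and 0.108% to 0.109% with OD, a measure that does not depend on the scaling factors.

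**Figure D1:**
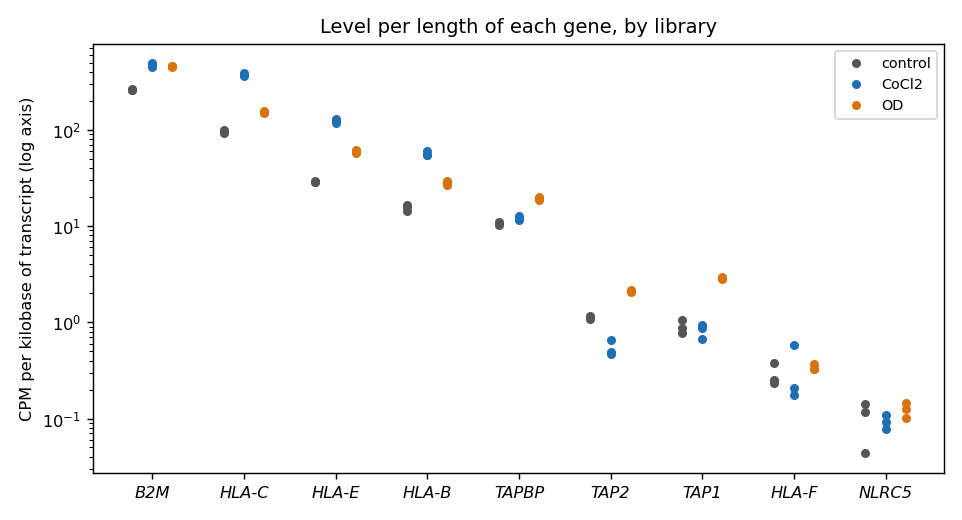
CPM per kilobase of the reference transcript (log axis) for each gene in each library, ordered by the control mean. B2M and the heavy chains HLA-C, HLA-E and HLA-B stand at the top, TAP1 and TAP2 lie near 1 CPM per kb in control cells, and the CoCl2 points of TAP2 lie below its control points while those of the heavy chains lie above.

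The largest rises with CoCl2 were those of HLA-C, HLA-E and HLA-B. HLA-B, a classical heavy chain, had 455, 444 and 453 counts in the control libraries, which is 24.5, 21.8 and 25.4 CPM. It stood at 83.2, 83.7 and 92.3 CPM with CoCl2 and at 45.4, 40.7 and 43.7 CPM with OD. The 3 conditions did not overlap, with CoCl2 highest and control lowest. Its log2 fold change was 1.86 with CoCl2 (SE 0.062, adjusted p = 5.43e-37, edgeR) and 0.86 with OD (SE 0.0647, adjusted p = 1.51e-18, edgeR). HLA-C, the most abundant heavy chain of the 4, averaged 148 ± 5.54 CPM in control cells, and rose to 581 ± 23.3 under CoCl2 and to 235 ± 5.76 under OD (SD, n = 3). Its libraries ranged from 143 to 154 CPM in control cells, 555 to 599 with CoCl2 and 230 to 242 with OD, again without overlap. The log2 fold change of HLA-C was 1.97 with CoCl2 (SE 0.0424) and 0.67 with OD (SE 0.0423). HLA-E, a nonclassical heavy chain that mostly binds signal peptides of other class I molecules, ranged from 72.5 to 75.3 CPM in control cells, 302 to 327 with CoCl2 and 145 to 156 with OD. Its rise was the largest among the 9 genes with CoCl2, a log2 fold change of 2.09 (SE 0.0453, 4.27-fold), and it was 1.05 with OD (SE 0.0456, 2.07-fold). These 3 genes moved in the same order, control below OD below CoCl2, in every library.

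HLA-F, a further nonclassical heavy chain, was near the limit of detection. It had 7, 7 and 10 counts in the control libraries, 5, 11 and 5 with CoCl2 and 12, 11 and 9 with OD. The groups overlapped in each comparison. Its log2 fold changes of 0.053 with CoCl2 (95% interval -0.84 to 0.94) and 0.25 with OD (95% interval -0.55 to 1.06) did not pass the test (edgeR, adjusted p = 0.917 and 0.604), and intervals of this width do not show that it stayed level. Without CoCl2 replicate 2 its value with CoCl2 was -0.555.

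The counts of these 4 heavy chain genes were also added up, which removes any effect of how reads were split between them. The sum stood at 246 ± 7.29 CPM in control cells, at 981 ± 35.2 under CoCl2 and at 431 ± 10.8 under OD (SD, n = 3). Its log2 fold change was 2.00 with CoCl2 (SE 0.041, adjusted p = 1.97e-48, edgeR) and 0.81 with OD (SE 0.0405, adjusted p = 8.22e-27, edgeR). HLA-C made up 60.3% ± 0.998 of the sum in control cells, 59.2% ± 0.424 under CoCl2 and 54.6% ± 0.572 under OD, and HLA-E 29.9% ± 0.902, 32% ± 0.813 and 35.2% ± 0.942.

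B2M, the shared light chain, rose with both agents, to levels that overlapped. Its libraries stood at 245, 244 and 249 CPM in control cells, 434, 461 and 429 with CoCl2 and 420, 431 and 431 with OD. Both treated groups lay above the control libraries, and they overlapped each other. The log2 fold change was 0.84 with CoCl2 (SE 0.0400, adjusted p = 1.02e-28, edgeR) and 0.79 with OD (SE 0.0398, adjusted p = 7.64e-27, edgeR). The difference between the agents was 0.045 on the log2 scale (95% interval -0.03 to 0.12, adjusted p = 0.283, edgeR), but -0.501 on library size alone, so the overlap of the agents for B2M depends on the scaling.

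**Figure D2:**
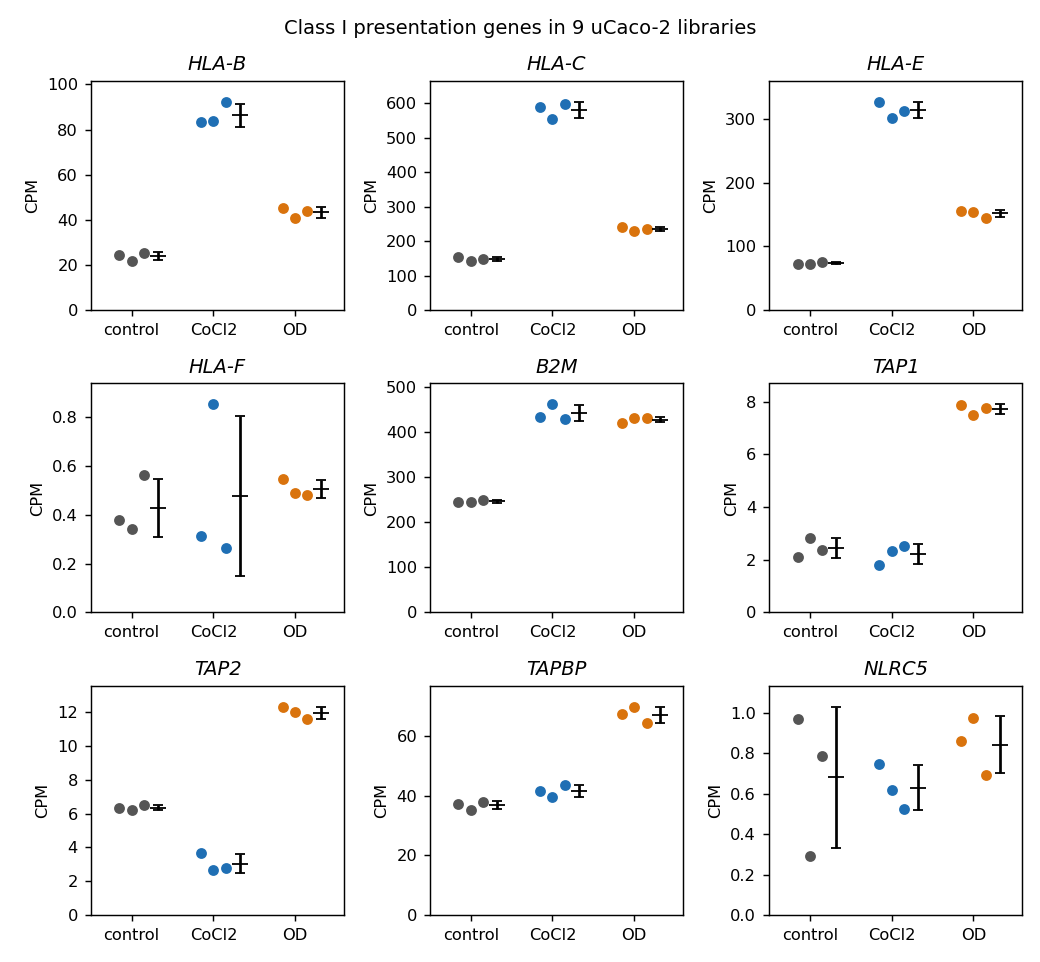
CPM in each of the 9 libraries (points, replicates 1 to 3 from left to right within a condition), with the mean and SD of each condition beside them (black). HLA-B, HLA-C and HLA-E are highest with CoCl2, B2M is raised by both agents to overlapping levels, and TAP1, TAP2 and TAPBP are highest with OD, with the CoCl2 points of TAP2 below control.

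The peptide transporter and its partner followed a different order. TAP1 had 39, 58 and 42 counts in the control libraries, 29, 30 and 48 with CoCl2 and 173, 169 and 146 with OD. On the CPM scale this was 2.1 to 2.84 in control cells, 1.80 to 2.52 with CoCl2 and 7.50 to 7.86 with OD, so the OD libraries stood alone above the other 6. The log2 fold change of TAP1 was 1.65 with OD (SE 0.141, 3.15-fold, adjusted p = 2.81e-16, edgeR), the largest of the 9 genes with this agent. With CoCl2 it was -0.136 (95% interval -0.51 to 0.24, adjusted p = 0.513, edgeR), and -0.64 (adjusted p = 0.00212) with library size alone.

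TAP2, the partner of TAP1, had 118, 126 and 116 counts in the control libraries, 59, 34 and 53 with CoCl2 and 270, 271 and 217 with OD. The 3 groups did not overlap, at 6.18 to 6.51 CPM in control cells, 2.63 to 3.67 with CoCl2 and 11.6 to 12.3 with OD. TAP2 fell with CoCl2, with a log2 fold change of -1.06 (SE 0.143, adjusted p = 1.02e-09, edgeR), and was higher with OD by 0.92 (SE 0.103, adjusted p = 7.43e-12, edgeR). The fall was close to the threshold on size, and without CoCl2 replicate 2 or CoCl2 replicate 3 it was -0.983 and -0.981 and no longer called.

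TAPBP, the tapasin gene, had 691, 720 and 678 counts in the control libraries, 666, 511 and 828 with CoCl2 and 1485, 1568 and 1208 with OD. It rose from 36.8 ± 1.40 CPM to 67.1 ± 2.65 with OD (SD, n = 3), a log2 fold change of 0.87 (SE 0.0557, adjusted p = 1.14e-21, edgeR). With CoCl2 it was at 41.5 ± 1.94 CPM, a log2 fold change of 0.18 (SE 0.0603, adjusted p = 0.00628, edgeR) that turned to -0.329 (adjusted p = 3.18e-06) with library size alone. The sign of TAPBP with CoCl2 therefore depended on the scaling.

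NLRC5, the transactivator, was counted too rarely to follow. It had 18, 6 and 14 counts in the control libraries, 12, 8 and 10 with CoCl2 and 19, 22 and 13 with OD. The groups overlapped, and the log2 fold changes were -0.10 with CoCl2 (95% interval -0.84 to 0.64) and 0.34 with OD (95% interval -0.31 to 0.99), with adjusted p of 0.81 and 0.372 by edgeR. Without control replicate 1 the value with CoCl2 was 0.249, and without control replicate 2 the value with OD was -0.047. A change within these intervals was not detectable at this depth.

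**Figure D3:**
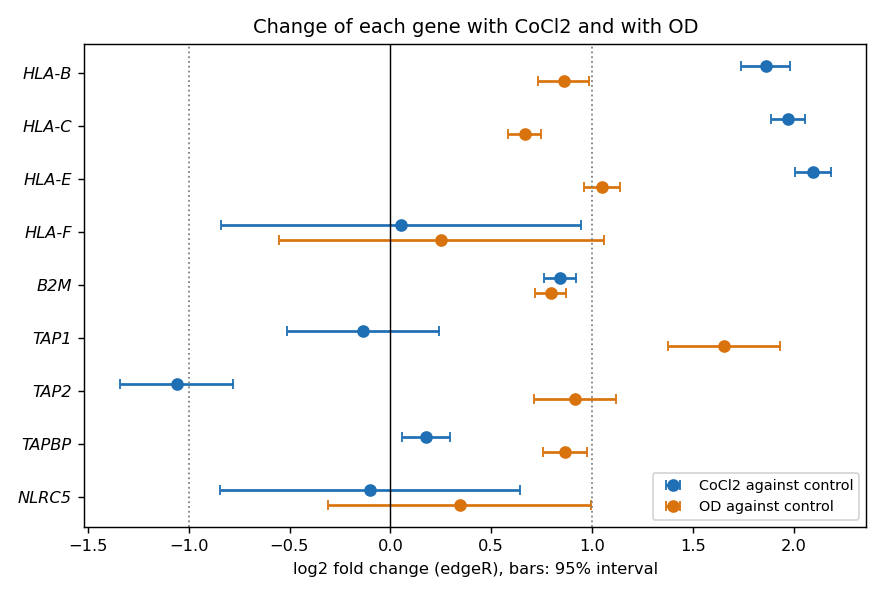
Log2 fold change of each gene against control cells with CoCl2 (blue) and OD (orange), with 95% intervals; dotted lines mark the threshold of 1 in size. The heavy chains HLA-B, HLA-C and HLA-E lie between 1.86 and 2.09 with CoCl2, TAP2 lies on opposite sides of 0 for the 2 agents, TAP1 lies at -0.14 with CoCl2 and 1.65 with OD, and HLA-F and NLRC5 have wide intervals across 0.

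A gene was called where the adjusted p was under 0.05 and the log2 fold change above 1 in size. With CoCl2, 3 of the 9 genes were called up (HLA-B, HLA-C and HLA-E), where 19.9% of all 15944 tested genes were, and TAP2 was called down, where 23.4% of all were, which makes 4 of 9 in either direction against 43.2%. By the adjusted p alone, 5 were higher (40.4% of all genes) and 1 lower (42.8%), and these were also the genes whose CoCl2 and control libraries did not overlap (40.5% and 42.9% of all genes). With OD, HLA-E and TAP1 were called up, 2 of 9 against 9.09% of all genes, and none was called down against 4.16%. By the adjusted p alone, 7 of the 9 were higher with OD, against 32.3% of all genes, and their libraries did not overlap those of control cells, as for 33.7% of all genes. None of the 9 was lower with OD by the adjusted p alone, against 33.3%. The median log2 fold change of the 9 genes was 0.18 with CoCl2 and 0.86 with OD, beside -0.049 and -0.01 for all tested genes. HLA-E lay above 94% of the tested genes with CoCl2 and TAP1 above 96.5% with OD. All 9 genes passed the filter on low counts, and both comparisons use the same control libraries.

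In the direct comparison of the agents, HLA-B, HLA-C and HLA-E were higher with CoCl2 and TAP1, TAP2 and TAPBP were higher with OD, while HLA-F, B2M and NLRC5 did not pass the test. HLA-C was higher with CoCl2 than with OD by 1.30 on the log2 scale (SE 0.0409), HLA-E by 1.05 (SE 0.0423) and HLA-B by 1.002 (SE 0.0566), each with an adjusted p of at most 5.46e-25 by edgeR. These 3 of 9 were called higher, against 17.5% of all genes. TAP2 was lower with CoCl2 by 3.93-fold (log2 difference -1.98, SE 0.126) and TAP1 by 3.46-fold (log2 difference -1.79, SE 0.151), and these 2 of 9 were called lower, against 23.8% of all genes. In either direction 5 of 9 were called, against 41.3%. By the adjusted p alone, 3 were higher (40.2% of all genes) and 3 lower (43.2%), and the same 6 did not overlap between the agents (40.3% higher and 43.5% lower among all genes). TAPBP was lower with CoCl2 by a log2 difference of -0.69 (SE 0.0561, adjusted p = 1.09e-17, edgeR), under the threshold on size. HLA-F at -0.20 (95% interval -1.04 to 0.64) and NLRC5 at -0.44 (95% interval -1.13 to 0.25) did not pass the test (edgeR, adjusted p = 0.665 and 0.237). With library size alone the differences of HLA-C, HLA-E and HLA-B were 0.76, 0.50 and 0.46, all positive with an adjusted p of at most 1.18e-09 but none above 1, and the share of all called genes that were higher with CoCl2 was 18.3% in place of 42.4%.

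Ratios of 2 genes counted in the same library are free of any scaling between libraries. The heavy chain sum had 1.02, 0.974 and 0.999 counts for each count of B2M in the control libraries, 1.06, 0.988 and 0.981 with OD and 2.30, 2.04 and 2.34 with CoCl2. The CoCl2 libraries were apart from all others, a 2.23-fold higher ratio than in control cells (log2 difference 1.16, SE 0.0659), while OD and control libraries overlapped. TAPBP had 0.150 ± 0.00436 counts per count of B2M in control cells, 0.157 ± 0.00694 with OD and 0.0942 ± 0.00782 with CoCl2 (SD, n = 3), which is 1.59-fold lower than in control cells. The ratio of TAP1 to TAP2 counts was 0.384 ± 0.0677 in control cells, 0.646 ± 0.025 with OD and 0.760 ± 0.233 with CoCl2, and both treated groups lay above all control libraries. HLA-C had 6.23 ± 0.39 counts per count of HLA-B in control cells, 6.73 ± 0.307 under CoCl2 and 5.45 ± 0.184 under OD, where the OD libraries lay below the others. HLA-E had 3.09 ± 0.212 counts per count of HLA-B in control cells, 3.64 ± 0.276 under CoCl2 and 3.52 ± 0.24 under OD. With 3 libraries against 3, the two-sided exact permutation test cannot give a p below 0.1, which 9 of the 15 ratio comparisons reached (0.167 after Benjamini-Hochberg adjustment over the 15).

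**Figure D4:**
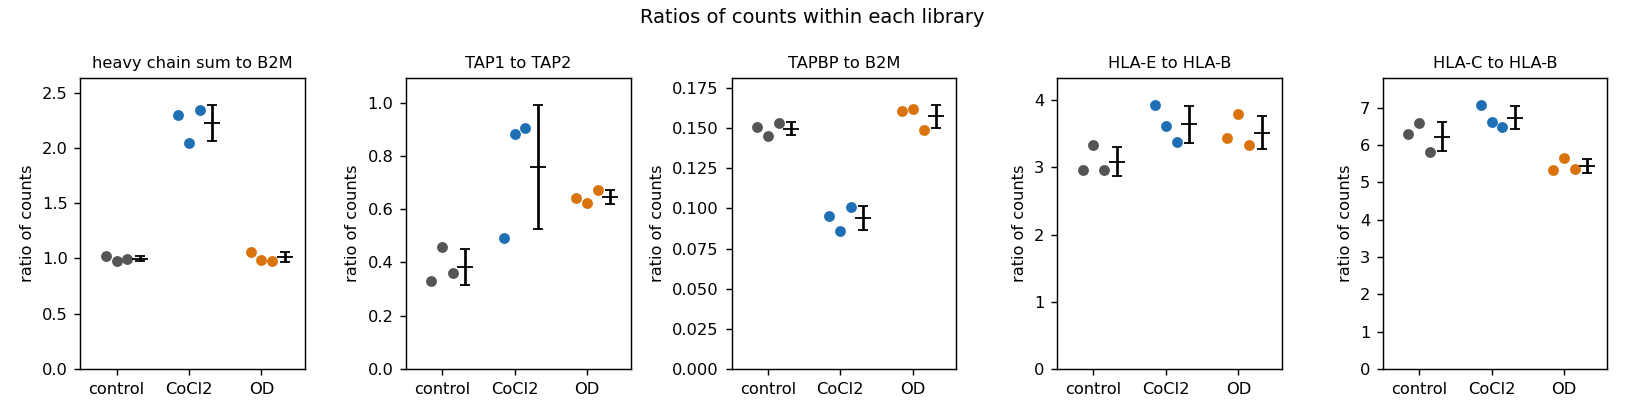
Ratio of counts of the named genes within each library (points, replicates 1 to 3 from left to right), with the mean and SD of each condition (black), all axes from 0. The ratio of heavy chain sum to B2M is near 1 in control and OD libraries and between 2.04 and 2.34 with CoCl2, and the ratio of TAPBP to B2M is lowest with CoCl2.

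Upstream of the transporter, peptides come from the proteasome, whose constitutive catalytic subunits PSMB5, PSMB6 and PSMB7 are replaced in the immunoproteasome by PSMB8, PSMB9 and PSMB10. All 3 constitutive subunit genes were called up with CoCl2 (19.9% of all tested genes), with log2 fold changes of 1.33, 1.45 and 1.68, and they were 0.82, 0.94 and 1.17 with library size alone. With OD the same subunits had log2 fold changes of -0.28, -0.66 and -0.23, each with an adjusted p of at most 2.37e-06 by edgeR but under the threshold on size. Of the 5 genes of the immunoproteasome and the PA28 activator, 4 were tested, and 2 were called down with CoCl2 (23.4% of all tested genes) and 0 with OD (4.16%). PSMB8 averaged 1.01 CPM in control cells, 0.292 under CoCl2 and 1.63 under OD, a log2 fold change of -1.89 (adjusted p = 4.77e-05) under CoCl2 and of 0.67 (adjusted p = 0.0224) under OD by edgeR. PSMB10 averaged 2.92 CPM both in control cells and under CoCl2, and 4.12 under OD. Its log2 fold change was 0.013 under CoCl2 (adjusted p = 0.945, edgeR) and 0.50 under OD (adjusted p = 0.00341, edgeR). PSME2, a PA28 subunit, had log2 fold changes of -1.27 with CoCl2 and -0.87 with OD. PSMB9, which starts beside TAP1 on the opposite strand, had 2 to 8 counts in the control libraries, 0 to 2 with CoCl2 and 5 to 7 with OD and was not tested.

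In the ER, 2 of 8 chaperones of peptide loading and glycoprotein folding were called up with CoCl2, where 19.9% of all tested genes were, and 0 with OD, where 9.09% were. HSPA5, the ER chaperone BiP, rose by 2.17 on the log2 scale under CoCl2, and calnexin (CANX), which binds new heavy chains, by 1.01 (0.50 with library size alone). Calreticulin (CALR) and PDIA3, partners of tapasin in the loading complex, had 0.54 and 0.73 with CoCl2, and 0.03 and 0.22 with library size alone. With OD, CALR had 0.082 (adjusted p = 0.0812, edgeR) and PDIA3 had 0.26 (adjusted p = 5.86e-08, edgeR). Of 7 peptidases that trim or destroy peptides, ERAP1, the main trimming peptidase of the ER, was called down with CoCl2 at -1.10 and had -0.055 with OD. Its relative ERAP2 had log2 fold changes of 0.50 with CoCl2 and 0.84 with OD, both under the threshold on size. The median of the 8 chaperones was 0.57 with CoCl2 and 0.09 with OD, and that of the 7 peptidases 0.14 and -0.05.

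Among 12 factors of the class I promoter, 2 were called down with CoCl2, a smaller share than the 23.4% of all tested genes. None was called up with CoCl2, where 19.9% of all were, and none was called with OD, against 13.3%. The 2 genes called down belong to the RFX complex that holds NLRC5 at the X box. RFXAP fell from 5.15 CPM in control cells to 0.773 with CoCl2 (log2 fold change -2.77, adjusted p = 1.41e-18, edgeR) and RFXANK from 15.1 to 6.03 CPM (log2 fold change -1.33, adjusted p = 3.91e-18, edgeR). With OD, RFXAP had -0.79 and RFXANK 0.19. The third subunit, RFX5, had -0.49 with CoCl2 and 0.28 with OD. EZH2, a histone methyltransferase known to silence class I genes, had 0.009 with CoCl2 and -0.051 with OD (edgeR, adjusted p = 0.877 and 0.379).

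Of 13 interferon receptor and relay genes, none was called with either agent, where 43.2% of all tested genes were with CoCl2 and 13.3% with OD. By the adjusted p alone, 9 of the 13 passed with CoCl2 and 11 with OD. Among all tested genes, 40.4% were higher and 42.8% lower by this rule with CoCl2, and 32.3% and 33.3% with OD. For IRF1, an interferon-induced activator of class I genes, the log2 fold change was 0.98 under OD (adjusted p = 7.99e-16, edgeR) and 0.066 with CoCl2 (adjusted p = 0.545, edgeR). The difference between the agents for IRF1 was -0.92 (SE 0.0886, adjusted p = 1.32e-14, edgeR). STAT2, a subunit of the factor that type I interferon activates, had 0.36 with CoCl2 and 0.75 with OD. Among 30 listed symbols of interferon-stimulated genes, 21 were tested, and 13 were called up with OD, where 9.09% of all tested genes were, and 0 down. With CoCl2, 7 were called up and 7 down, beside 19.9% and 23.4% of all tested genes. For IFIT2 the log2 fold change was 3.42 under OD and 2.08 under CoCl2, whereas OAS3, an antiviral synthetase, had 0.87 under OD and -2.099 under CoCl2. With library size alone the counts of interferon-stimulated genes were 14 up and 0 down with OD and 6 up and 7 down with CoCl2.

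**Figure D5:**
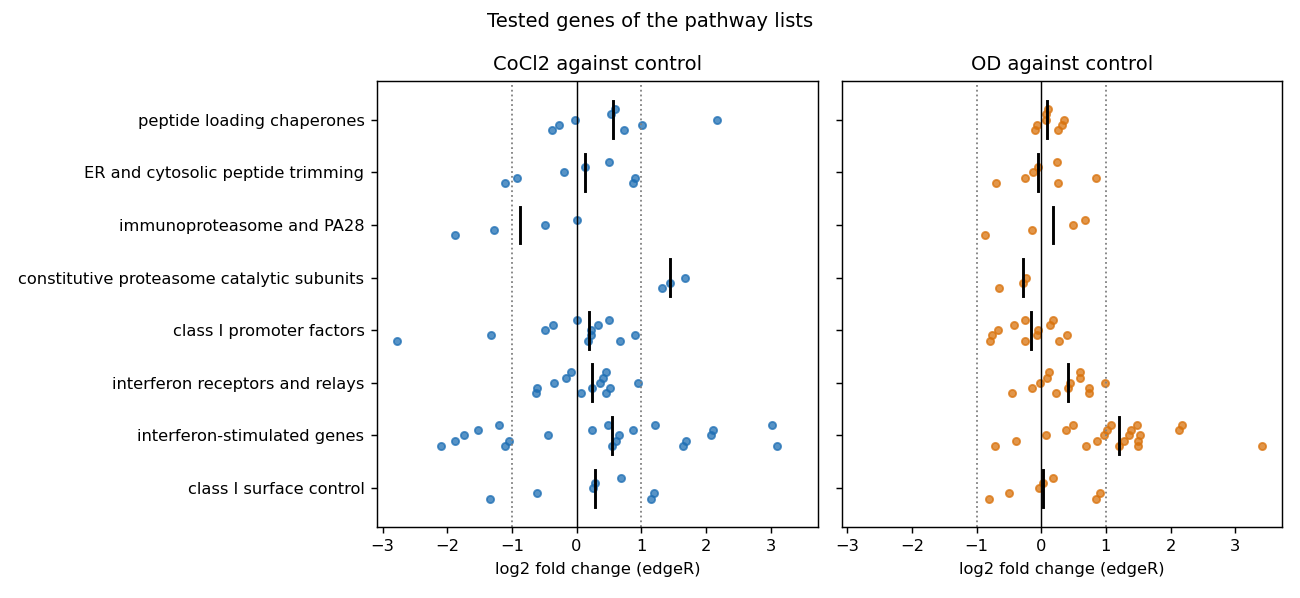
Log2 fold change of every tested gene of 8 lists against control cells with CoCl2 (left) and OD (right), with the median of each list as a black bar and dotted lines at 1 in size. The constitutive proteasome subunits lie right of 1 with CoCl2 and left of 0 with OD, and the interferon-stimulated genes spread on both sides of 0 with CoCl2 and lie mostly right of 0 with OD.

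Of 8 genes that act on class I molecules after assembly, 7 were tested. WWP2 and SYVN1, both ubiquitin ligases, were called up with CoCl2 (2 of 7, against 19.9% of all tested genes; log2 fold changes 1.15 and 1.20, or 0.64 and 0.70 with library size alone), and MARCHF9, a membrane-bound ligase that downregulates class I, was called down at -1.34. None of the 7 was called with OD, against 13.3% of all tested genes, and their median log2 fold change was 0.02. SUSD6, which takes part in the removal of class I from the surface, had 0.91 with OD (adjusted p = 5.94e-19, edgeR). SYVN1 had 0.85 with OD, while WWP2 went the other way at -0.80 (adjusted p = 1.2e-18, edgeR). TMEM127, of the same list, had 0.022 with OD. Few class II genes were detected. HLA-DRA and HLA-DQA1 had 0 counts in all 9 libraries, and 3 of the 13 listed (HLA-DMA, CD74 and CTSS) passed the filter on low counts. HLA-DMA, which edits peptides on class II molecules, was called up with OD, from 0.693 to 2.73 CPM (log2 fold change 1.98, adjusted p = 7.07e-11, edgeR), and had 0.48 with CoCl2 (adjusted p = 0.156, edgeR). CD74, the invariant chain, had 0.087 with CoCl2 and 0.21 with OD.

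Genes whose course over the 9 libraries was most like that of a class I gene were sought among 9025 other genes averaging at least 10 CPM, by the root mean square difference of log2 CPM after centring on the control mean. For B2M they were ZDHHC9, MRPS6 and P4HB, with differences of 0.0586, 0.0609 and 0.0625. For TAP1 they were CHPF, PAM and TMEM92 (0.129, 0.161 and 0.162), and for HLA-B they were KDM5B, WIPI2 and LGMN (0.101, 0.101 and 0.103). For NLRC5 the nearest were SMIM14, ARSL and RAB11B at 0.306, 0.331 and 0.334, distances that include the counting error of NLRC5 itself.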

How the data were processed

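Per the labels' processing notes, the authors used FastQC 0.11.9, cutadapt 2.10 and STAR 2.7.5b on GRCh38.p13, with single-end reads of 75 bases. The deposited values are raw counts per gene symbol and library. The counting tool, its strand setting and its rule for reads that fit several genes were not given in the sources used here.

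edgeR 4.0.16 (R 4.3.3) was fitted to all 9 libraries, with TMM factors, its expression filter (15944 of 60591 symbols kept), 1 mean per condition and a robust quasi-likelihood test. Adjusted p-values are Benjamini-Hochberg values over all 15944 genes, and a call also needed a fold change of more than 2 either way. The 95% intervals are from the SE and cover the spread between replicates. The members and lists were chosen with earlier results of these data known. Named genes are the 9 members, called list genes averaging at least 1 CPM (up to 4 per list and comparison), genes of lists of at most 8, and the nearest patterns. RFX5, EZH2, IRF1, STAT2, CD74, HLA-DRA, HLA-DQA1, PTPRC and PSMB9, among others, were named by role or after their values were seen.

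Positions and lengths came from GENCODE 44 and promoter windows from RefSeq. Alternatives were DESeq2 1.42.0, fits on 6 libraries, other scaling factors and filters, a block for replicate number, single libraries left out, glmTreat (a test against the threshold on size), no threshold on size, and thinned counts. The steps were tested on simulated data.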

Additional observations from a re-analysis of the deposited data

How the results depend on the processing

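The rises of HLA-B, HLA-C and HLA-E with CoCl2 and of TAP1 and HLA-E with OD stayed called, in the same direction, in all 19 other fits with the same threshold. Over these fits the log2 fold change with CoCl2 ranged from 1.36 to 1.91 for HLA-B, 1.46 to 2.02 for HLA-C and 1.59 to 2.15 for HLA-E, lowest with library size alone. That of TAP1 with OD ranged from 1.57 to 1.79. The summed heavy chains differed between the agents by 0.64 with library size alone, no longer above 1.

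With glmTreat 1 gene was called with OD, and by the adjusted p alone 7 were. Between the agents 3 genes were called (1 higher, 2 lower with CoCl2) with upper-quartile factors, without a filter, with at least 10 counts in every library and with glmTreat. With upper-quartile factors and both filters, HLA-B and HLA-E fell under a log2 difference of 1. With library size alone 3 were called too, but 0 higher and 3 lower: HLA-C (0.759) was also lost and TAPBP (-1.238) gained. HLA-B fell under 1 in 13 of the 19 fits. Over single libraries left out, 3 to 4 genes were called with CoCl2, 2 with OD and 4 to 5 between the agents, and the heavy chain sum ranged from 1.97 to 2.03, 0.78 to 0.84 and 1.17 to 1.22. The ratio of heavy chain sum to B2M with OD, against control, ranged from -0.021 to 0.031 on the log2 scale, and that of HLA-E to HLA-B between the agents from -0.007 to 0.104, so neither has a direction.

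Other reversals concern values near 0. For HLA-F with CoCl2 they were -0.046 with upper-quartile factors, -0.445 with library size alone, -0.009 without a filter, and -0.02, -0.094 and -0.555 without control replicate 1, control replicate 2 and CoCl2 replicate 2 (with single libraries left out, -0.555 to 0.386). For HLA-F between the agents they were 0.001 and 0.133 without CoCl2 replicate 1 and replicate 3 (range -0.809 to 0.133). NLRC5 with CoCl2 gave 0.249, 0.011 and 0.042 without control replicate 1, control replicate 3 and CoCl2 replicate 3 (range -0.494 to 0.249), and with OD -0.047 without control replicate 2 (range -0.047 to 0.706). TAPBP with CoCl2 was -0.329 with library size alone. B2M between the agents was -0.086, -0.501, -0.022 and -0.008 with upper-quartile factors, library size alone, no filter and at least 10 counts in every library. The cause of these reversals was not tested.

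Deviations of same-numbered libraries from their condition means were almost uncorrelated (-0.00492 to 0.0376 across all tested genes). These correlations include the counting error of low genes, so they cannot decide whether the numbers pair libraries. With the replicate block, 4, 2 and 4 genes were called with CoCl2, with OD and between the agents, and the heavy chain sum was 1.995, 0.81 and 1.19. HLA-B between the agents was then 0.996, the sole call lost. HLA-F and NLRC5, at 5 to 22 counts, carry SE of 0.332 to 0.455, against 0.0391 to 0.04 for B2M.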

Other observations

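Relatives of the class I genes, among them pseudogenes and nonclassical members of the family, were also counted. Of 10 tested, 7 were called up with CoCl2 (19.9% of all tested genes) and 3 with OD (9.09%), and none was called down with either. With library size alone the number with CoCl2 was 2. HLA-L, annotated as a long noncoding RNA in GENCODE 44, and HLA-K, a pseudogene, had log2 fold changes of 1.52 and 1.24 with CoCl2 and 1.08 and 0.65 with OD, and HLA-G, a nonclassical heavy chain, 1.37 and 0.45. Reads from these low-level genes may be shared with their abundant relatives, which was not tested for them.

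HLA-V, annotated as a long noncoding RNA in GENCODE 44, had 2, 5 and 7 counts in the control libraries, 7, 7 and 12 with CoCl2 and 62, 45 and 41 with OD, a log2 fold change of 3.21 with OD (SE 0.327, adjusted p = 2.41e-13, edgeR). MR1, which presents vitamin metabolites to T cells, was called up with OD (log2 fold change 1.01) and had -0.125 with CoCl2. PROCR, the endothelial protein C receptor, which has a class I fold, was called up with CoCl2 (log2 fold change 2.33) and had 0.39 with OD.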
